A study of Mus musculus with 5 samples.

Results

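Hepatocytes that fell in the high gate for a probe that reports fatty acid oxidation (FAO), sorted from livers of mice given bezafibrate, were compared with hepatocytes from the positive gate of mice given the same drug. Each gate is 1 library, so the comparison uses 2 of the 5 libraries of the series, taken by their labels. The other 3 are the negative gate of bezafibrate mice and the positive and negative gates of control mice. All mice were of the ICR stock, which is outbred, and the probe's fluorescence set the gate in a cell sorter. The labels name no treatment for the control mice. The sources used here do not give the dose and duration of bezafibrate, the age and sex of the mice, how many mice each library stands for, the limits of the gates, or whether the bezafibrate gates came from the same livers. Of 13966 gene symbols in the table, 8981 had a mean normalised read count of at least 5 over the 5 libraries and were analysed.

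Bezafibrate is a fibrate drug that activates peroxisome proliferator-activated receptors. In rodent liver the receptor PPARalpha switches on genes that take up, activate and oxidise fatty acids. Long-chain fatty acids enter mitochondria through the carnitine shuttle and are shortened there by beta-oxidation. Very long and branched chains are shortened in peroxisomes, and enzymes of the Cyp4 family start omega-oxidation in the endoplasmic reticulum.

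Recovered depth was 6831281 reads in the high library and 5993366 in the positive library, and 5056884 to 7146578 over the series. With 1 library per gate there is no replicate check, and each difference describes these libraries and not the gates in general. Values are normalised read counts as deposited. A difference is log2(value + 1) of the high library minus that of the positive library, a scale that understates differences of low genes. A ratio is the plain ratio of the values, with an exact Clopper-Pearson 95% interval from the reads, here called the counting interval. It covers counting error only: the reads carry no molecular identifiers, so several may stem from 1 molecule. In bulk libraries, fewer cells of a type and less RNA per cell cannot be told apart. The hepatocyte markers were abundant, with Alb (albumin) at 54530.1 in the high and 48208.5 in the positive library, and 8 of 8 markers found in the table had reads in each. The RNA make-up of the libraries differed as well. Rn45s, precursor of the ribosomal RNAs, made up 13.5% of reads in the high library and 18.5% in the positive library.

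The gates differed little in most genes. The median difference over the 8981 genes was -0.00, with quartiles at -0.13 and 0.13. On the log2(value + 1) scale, only 7 genes (0.0779%) were at least 2-fold higher in the high library and 7 (0.0779%) at least 2-fold lower. At 1.5-fold the counts were 73 higher (0.813%) and 87 lower (0.969%). Scaling by column totals turned these into 112 higher and 65 lower, and scaling by totals without Rn45s into 59 and 120. The counting interval lay wholly above 1 for 738 genes (8.22%) and wholly below 1 for 695 (7.74%). Among the 2420 genes with a mean of at least 50, these shares were 17.3% and 14.3%.

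**Figure D1:**
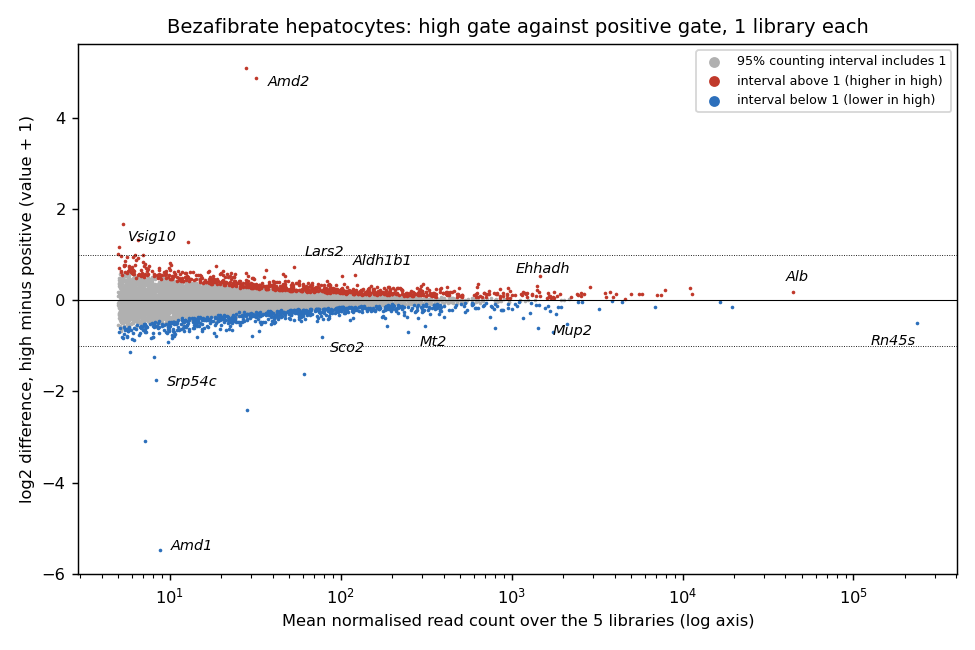
Each point is 1 of 8981 genes, with its mean normalised read count over the 5 libraries on a log axis and its log2 difference, high minus positive, on the other. Red and blue points have counting intervals wholly above or below 1, dotted lines mark 2-fold, and Amd1 and Amd2 stand far outside the cloud.

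Several of the largest differences belonged to near-identical gene copies. Amd1 and Amd2 both encode S-adenosylmethionine decarboxylase, an enzyme of polyamine synthesis. Amd1 (chromosome 10, 40287458 to 40302186, minus strand) had 0 reads in the high library and 277 in the positive library, and its value was 0 in the other 3 libraries. Amd2 (chromosome 10, 35708675 to 35711892, minus strand) ran the other way, at 42.1 in the high library against 0.473 in the positive library. It had 40.1 in bezafibrate negative, 44.0 in control positive and 34.1 in control negative. In the annotated GENCODE transcripts, 1002 of 1002 coding bases of the pair align and 1 base differs. The stretch around it, coding bases 766 to 825, is shown because it is the place where a coding read could tell the copies apart, with the differing base in capitals.
Amd1: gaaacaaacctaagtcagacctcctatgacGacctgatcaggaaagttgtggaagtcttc
Amd2: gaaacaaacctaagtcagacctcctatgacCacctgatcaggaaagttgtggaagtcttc
Summed over both copies, the value was 42.1 in the high library against 44.1 in the positive library, a ratio of 0.954 (counting interval 0.810 to 1.12). The difference of either copy alone is therefore uncertain.

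Srp54a, Srp54b and Srp54c, which encode the GTPase of the signal recognition particle, are the same case. Srp54c (chromosome 12, 55230168 to 55263836) had 2.93 in the high library against 12.3 in the positive library, with 13.7 in bezafibrate negative, 7.55 in control positive and 5.13 in control negative. Its coding sequence differs from those of Srp54a and Srp54b at 6 of 1512 bases, and those of Srp54a and Srp54b at 0. Srp54b had 23.1 in the high library against 16.7 in the positive library. The 3 genes together had 34.1 in the high and 35.3 in the positive library, a ratio of 0.966 (0.804 to 1.16).

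Outside such copies and genes with provisional names, the genes at least 2-fold apart were low. Vsig10, which encodes a membrane protein with immunoglobulin domains, had 6.26 in the high library against 2.21 in the positive library, a ratio of 2.84 (1.54 to 5.58). Sytl4, which encodes the vesicle protein granuphilin, had 7.73 against 3.31. On the other side, Tmod1 (tropomodulin, which caps actin filaments) had 2.27 in the high library against 6.78 in the positive library. Tmod1 was at 0 in bezafibrate negative and at 21.1 in control negative, and the gene overlaps Tstd2 on the other strand. Just under 2-fold on the log2(value + 1) scale, though not as plain ratios, were Polr1c, a subunit of RNA polymerases I and III, at 9.73 in the high against 4.41 in the positive library, and Twistnb, a subunit of RNA polymerase I, at 9.33 against 4.57. Under 2-fold on either scale, Psmb8, a subunit of the immunoproteasome, had 11.5 against 6.15, and Ifngr2, a chain of the interferon-gamma receptor, 14.0 against 7.57. Lower in the high library were Zfp182 at 6.80 against 13.7 and Mtf2, a Polycomb-like protein, at 10.1 against 18.6.

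Genes of mitochondrial beta-oxidation were mostly higher in the high library, by small amounts. The median difference of 25 genes was 0.14, against -0.00 over all genes and 0.00 over genes with a mean of at least 50. Of the 25, 21 lay above 0 (49.9% of all genes did) and 4 below (50.1%). The counting interval was above 1 for 10 members and below 1 for 1, where 8.22% and 7.74% of all genes were so placed. Among all genes with a mean of at least 50, the shares were 17.3% and 14.3%. None of the 25 reached 1.5-fold. Scaling by column totals gave a median of 0.20, and by totals without Rn45s 0.11. Intervals above 1 then numbered 13 and 7, in that order, where those of all 8981 genes numbered 1161 and 540.

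Several members that lay higher in the high library act in the carnitine shuttle, in the spiral or in passing on electrons. Among those named here, Acadvl, Hadha, Hadhb, Etfdh and Etfb were chosen after their values were seen. Acaa2, the thiolase that ends each round in the matrix, had 442 in the high library against 342 in the positive library, a ratio of 1.29 (1.22 to 1.36). It had 409 in bezafibrate negative, 161 in control positive and 165 in control negative. Acads, the dehydrogenase of short chains, had 77.8 in the high against 60.4 in the positive library, a ratio of 1.29 (1.13 to 1.47). Cpt2, the carnitine palmitoyltransferase of the inner membrane, had 51.8 against 39.7, a ratio of 1.30 (1.11 to 1.54), with 62.8 in bezafibrate negative. Acadvl, the dehydrogenase of very long chains, had 241 against 200.3, and the trifunctional protein subunits Hadha and Hadhb had ratios of 1.17 (1.10 to 1.26) and 1.16 (1.02 to 1.33). Etfdh and Etfb, which pass electrons from the dehydrogenases to the respiratory chain, had ratios of 1.15 (1.03 to 1.29) and 1.09 (1.01 to 1.19).

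Other members were nearly level or lower. Cpt1a, the gatekeeper of the carnitine shuttle on the outer membrane, had 323 in the high library against 326 in the positive library, a ratio of 0.989 (0.932 to 1.05). Acsl1, which activates long-chain fatty acids, had 996 in the high against 995 in the positive library, with a counting interval of the ratio from 0.968 to 1.04. The carnitine-acylcarnitine carrier Slc25a20 had 33.3 against 32.9. The signs of Cpt1a and Acsl1 changed with the scaling. Acadm, the dehydrogenase of medium chains, had a ratio of 0.961 (0.880 to 1.05). Acad9, known mainly as an assembly factor of complex I, was the 1 member with its interval below 1, at 86.9 in the high library against 101 in the positive library.

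Peroxisomal beta-oxidation genes had a median difference of 0.10 over 24 of 25 listed genes, with 19 members above 0 and 5 below. The interval was above 1 for 10 of them and below 1 for 0, against 8.22% and 7.74% of all genes. Among all genes with a mean of at least 50, the shares were 17.3% and 14.3%. Intervals above 1 numbered 13 when scaled by column totals and 6 when scaled by totals without Rn45s, where all genes had 1161 and 540. Ehhadh, the bifunctional enzyme (chromosome 16, 21761287 to 21787807), had 1535 in the high library against 1268 in the positive library, a ratio of 1.21 (1.18 to 1.25). It had 1813 in bezafibrate negative, against which the high library was lower, and 87.5 and 72.9 in control positive and control negative. Scp2, whose longer form is the peroxisomal thiolase of branched chains, had 2055 in the high against 1809 in the positive library. Amacr, a racemase needed for branched chains, had 76.6 against 62.9, a ratio of 1.22 (1.07 to 1.39). Abcd2, an importer of very long-chain acyl-CoA, had 14.1 against 10.2, and the related importer Abcd3 159 against 163, with a sign that changed with the scaling.

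The 11 omega-oxidation genes had a median of 0.05, with 7 above 0, 3 with the interval above 1 and 2 below. Of all genes, 8.22% and 7.74% had such intervals. The counts for this list became 5 and 0 with column totals, and 2 and 2 with totals without Rn45s. Those of all 8981 genes became 1161 and 385, then 540 and 931. Cyp4a10 had 1160.1 in the high library against 1048 in the positive library, a ratio of 1.11 (1.07 to 1.14), and Cyp4a14 1986 against 1873, a ratio of 1.06 (1.04 to 1.09). Some Cyp4a genes are near copies of each other, so their reads may be shared. Aldh3a2, the fatty aldehyde dehydrogenase, had 56.2 in the high against 66.4 in the positive library, and Cyp4f13 54.8 against 64.9. Of 15 peroxins, which build peroxisomes and import their enzymes, 9 lay above 0, and the median was 0.10. The interval was above 1 for 3 and below 1 for 0, against 8.22% and 7.74% of all genes. Of these peroxins, 2 were at least 1.5-fold higher, as were 0.813% of all genes. Pex5, the import receptor, lay under 1.5-fold, at 102 in the high against 85.9 in the positive library, a ratio of 1.18 (1.06 to 1.32). Pex10, a ring-finger peroxin, had 6.40 against 3.31.

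**Figure D2:**
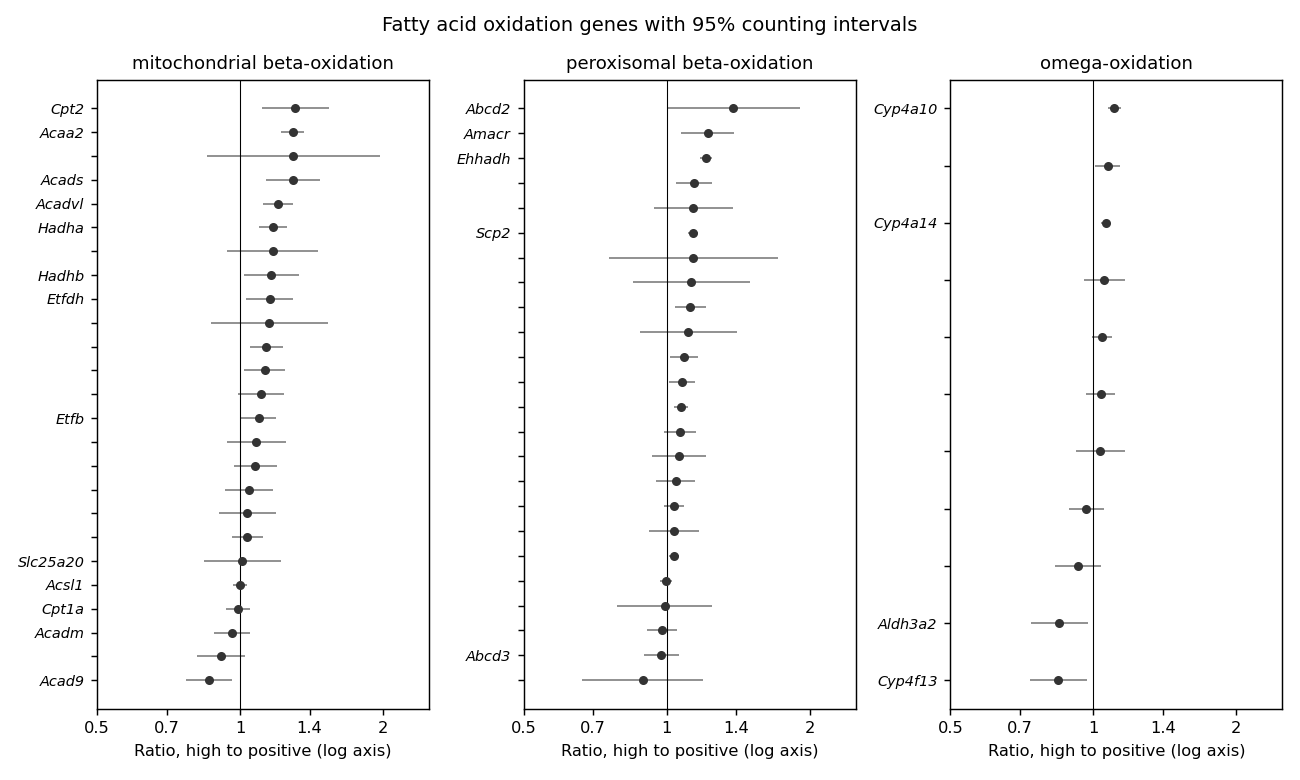
Ratio of the high to the positive library on a log axis for each gene of mitochondrial beta-oxidation (25), peroxisomal beta-oxidation (24) and omega-oxidation (11), 1 library per gate. Bars are 95% counting intervals, and most points lie between 0.8 and 1.4, with Cpt2, Acaa2 and Acads near 1.3. Genes named in the text are labelled.

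Other targets of PPARalpha were mixed. The median of 22 genes analysed of 28 listed was 0.06, with 15 above 0, 6 with the interval above 1 and 2 below. Of all genes, 8.22% and 7.74% had such intervals. Plin2, which coats lipid droplets, had 103 in the high library against 83.7 in the positive library, a ratio of 1.23 (1.10 to 1.37), with 106 in bezafibrate negative, 71.4 in control positive and 69.6 in control negative. Retsat, retinol saturase, had 507 against 433, a ratio of 1.17 (1.11 to 1.23). Fabp1, the liver fatty acid binding protein, lay lower at 964 in the high library against 1114 in the positive library, a ratio of 0.866 (0.838 to 0.895). Angptl4 had 138 in each of the 2 libraries. Ppara itself, the receptor gene, had 656 in the high and 658 in the positive library, and the sign changed with the scaling. All 4 genes of ketone body synthesis lay above 0, as did 49.9% of all genes, and 2 had the interval above 1. When scaled by totals without Rn45s, 3 lay above 0 and 1 below. Bdh1, which makes hydroxybutyrate, had 155 in the high against 133 in the positive library.

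Cholesterol synthesis and uptake had a median of 0.10 over 24 genes, with 20 above 0, as were 49.9% of all genes. The interval was above 1 for only 2, a share near the 8.22% of all genes, and below 1 for 0. Scaled by column totals, 22 lay above 0, and by totals without Rn45s 15 did. Of all 8981 genes, 5437 and 3899 did so under these scalings. Fatty acid and triglyceride synthesis had a median of 0.07 over 21 genes, with 8 intervals above 1 and 4 below, where 8.22% and 7.74% of all genes were so placed. Acly, which makes cytosolic acetyl-CoA, had 258 in the high library against 216 in the positive library. Mlxipl, the carbohydrate-responsive factor ChREBP, lay lower at 1453 against 1709, and the elongase Elovl6 at 34.0 against 41.1.

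Secreted plasma proteins, the most abundant products of hepatocytes, were higher in the high library in most cases. The median of 29 genes was 0.13, with 23 above 0, 22 with the interval above 1 and 5 below. Among all genes with a mean of at least 50, 17.3% and 14.3% had such intervals, and the abundance of these genes makes their intervals narrow. Alb had a ratio of 1.13 (1.13 to 1.14). Its value was 72188 in bezafibrate negative, 23064 in control positive and 24303 in control negative. The heme binder Hpx had 1812 in the high against 1448 in the positive library, and the protease inhibitor Serpina1a, which has close copies, 3680.3 against 2997. The members with intervals below 1 were Apoa1, Apoa2, Apoc1, Ttr and Fgb. Apoc1 had 1213 in the high library against 1473 in the positive library, a ratio of 0.824 (0.800 to 0.848). When all genes were ranked by transcript length, the 1732 genes at the short end had a median difference of 0.02 and the 1730 at the long end one of -0.02. The part of this, and of the Rn45s share, in the list medians was not tested.

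The 13 acute phase genes were split. Complement C3 had 9196 in the high library against 7911 in the positive library, and haptoglobin, Hp, 1969 against 1745. Hamp, the iron hormone hepcidin, lay lower at 267 against 345, a ratio of 0.776 (0.730 to 0.825). It had 454 in bezafibrate negative and 71.4 and 81.3 in control positive and control negative, so the high library was the lowest of the bezafibrate gates and above the control libraries.

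**Figure D3:**
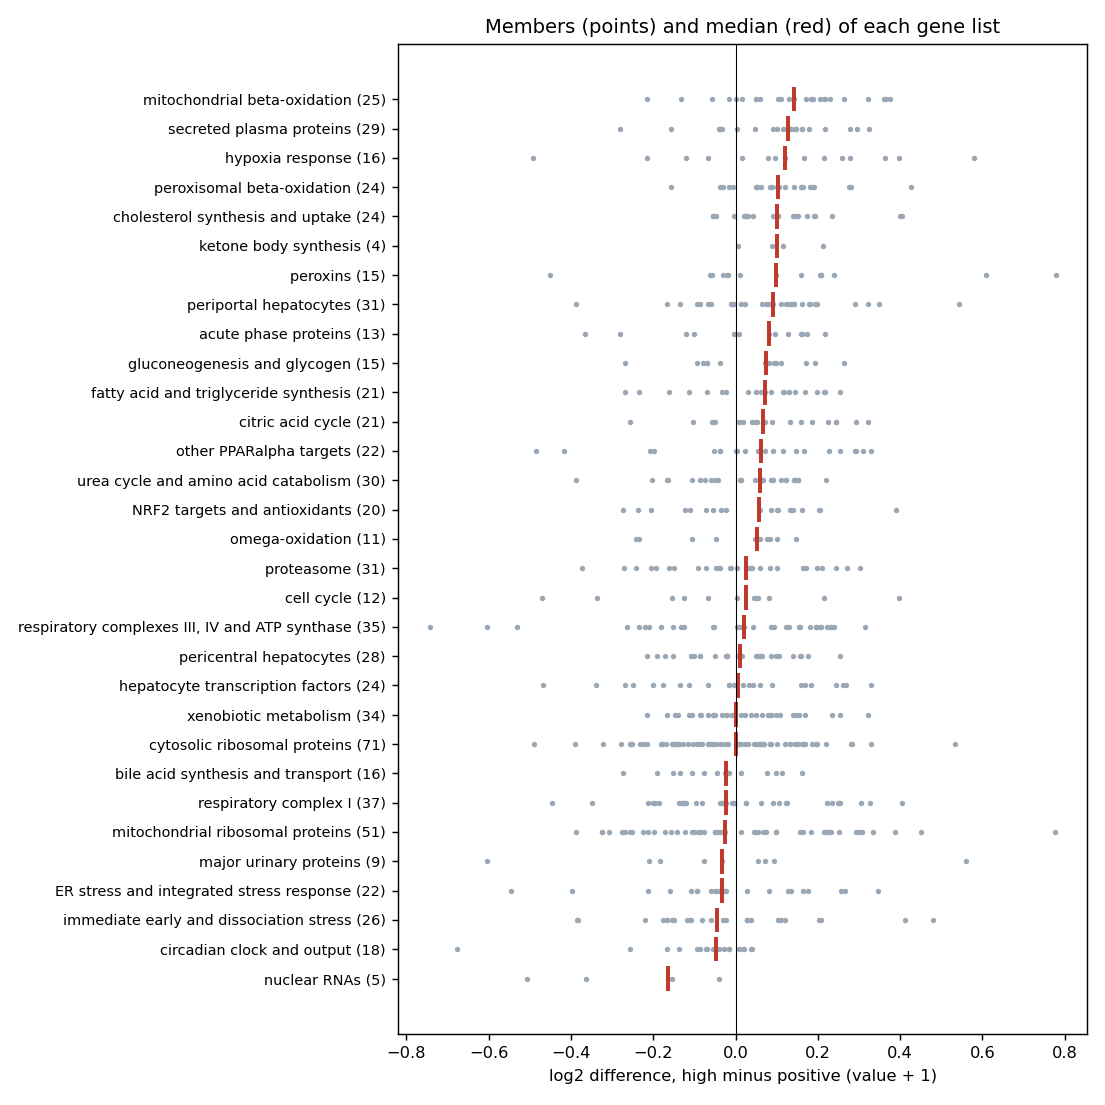
Each grey point is the log2 difference, high minus positive, of 1 member of a gene list, and each red bar is the median of the list, with the number of genes analysed in brackets. Medians run from -0.16 for nuclear RNAs to 0.14 for mitochondrial beta-oxidation.

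Liver zonation was examined through genes of periportal and pericentral hepatocytes, which lie at the inflow and the outflow of the lobule. Periportal genes had a median of 0.09 over 31 genes, with 21 above 0, 16 with the interval above 1 and 5 below. Such intervals were found for 8.22% and 7.74% of all genes, and for 17.3% and 14.3% of those with a mean of at least 50. Aldh1b1, a mitochondrial aldehyde dehydrogenase (chromosome 4, 45799022 to 45804604), had 151 in the high library against 103 in the positive library, a ratio of 1.46 (1.33 to 1.61). It had 136 in bezafibrate negative, 48.1 in control positive and 67.1 in control negative. Pigr, the polymeric immunoglobulin receptor, had 836 in the high against 656 in the positive library. Ass1 and Asl, neighbouring enzymes of the urea cycle, went the other way. Ass1 had 1276 in the high library against 1668 in the positive library, a ratio of 0.765 (0.744 to 0.786), with 1031 in bezafibrate negative, 914 in control positive and 967 in control negative. Asl had 284 against 319. Cps1, the first urea cycle enzyme, had 6134 against 5562. This list shares members with those of secreted proteins and amino acid catabolism, so they are not separate results.

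Pericentral genes were level, with a median of 0.01 over 28 genes and 15 above 0, and a sign that changed with the scaling. Cyp2e1 had 1274 in the high library against 1293 in the positive library, and Cyp3a11 2006 against 1891, and the sign of Cyp2e1 changed with the scaling. Between control positive and control negative, which share no library with this comparison, the same lists had medians of 0.19 for pericentral and -0.08 for periportal genes. The difference between these contrasts was not tested.

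Mitochondrial genes outside fatty acid oxidation were divided. The 21 genes of the citric acid cycle and pyruvate dehydrogenase had a median of 0.07, with 17 above 0. Sdhd, a membrane subunit of succinate dehydrogenase, had 60.8 in the high library against 48.4 in the positive library, and Idh2 52.9 against 43.0. The 37 subunits of complex I had a median of -0.02 and the 35 of complexes III and IV and ATP synthase 0.02, and both signs changed with the scaling. Within the second list, Atp5b, the catalytic beta subunit of ATP synthase, had 468 in the high against 396 in the positive library, a ratio of 1.18 (1.12 to 1.24). Cox6c had 50.9 against 61.3, a ratio of 0.830 (0.719 to 0.958). Within complex I, Ndufv1 had 88.6 against 70.5 and Ndufa12 22.5 against 31.0. Cytosolic ribosomal proteins had a median of 0.00 over 71 genes, with 7 intervals above 1 and 11 below. Of all genes, 8.22% and 7.74% had such intervals. The counts for this list became 13 and 7 with column totals, and 6 and 11 with totals without Rn45s. Those of all 8981 genes became 1161 and 385, then 540 and 931. Mitochondrial ribosomal proteins had a median of -0.02 over 51 genes. The signs of both ribosomal medians changed with the scaling.

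Immediate early and dissociation stress genes had a median of -0.04 over 26 genes, with 11 above 0 and 15 below. In this list 2 intervals lay above 1 and 6 below. Of all genes, 8.22% and 7.74% had such intervals. The counts for this list became 3 and 3 with column totals, and 2 and 9 with totals without Rn45s. Those of all 8981 genes became 1161 and 385, then 540 and 931. Egr1 had 591 in the high library against 688 in the positive library and Gadd45g 101 against 132. Jun had 736 against 751, with a sign that changed with the scaling. Hspa8 lay higher in the high library, at 295 against 256, a ratio of 1.15 (1.08 to 1.23). Rhob had 46.8 against 40.3, with a counting interval of the ratio from 0.984 to 1.37. Clock and output genes had a median of -0.05 over 18 genes, with 13 below 0 and 1 interval, that of Ciart, below 1. The medians of both lists turned positive when scaled by column totals. Hepatocyte transcription factors had a median of 0.01 over 24 genes, with 2 intervals above 1 and 6 below, against 8.22% and 7.74% of all genes. The list's counts became 7 and 4 with column totals, and 0 and 7 with totals without Rn45s, beside the all-gene counts given above. Onecut2 had 122 in the high against 154 in the positive library, while Hnf4a had 695 against 686, and the signs of Hnf4a and of the list's median changed with the scaling. Hypoxia response genes had a median of 0.12 over 16 genes, with 12 above 0 and 4 below, and 4 intervals above 1 and 1 below. Among all genes, 49.9% lay above 0, and 8.22% and 7.74% had intervals above and below 1. The glycolytic enzymes Eno1 and Pgk1 had 90.5 against 70.1 and 113 against 92.7, while Vegfa had 470 against 492. Eno1 had 156 in bezafibrate negative. Bile acid genes had a median of -0.02 over 16, with a sign that changed with the scaling, and Cyp27a1, a sterol hydroxylase, had 410.4 in the high against 469 in the positive library. Nr0b2, the repressor SHP, had 88.7 against 107. The medians of urea cycle and amino acid catabolism (30 genes), gluconeogenesis and glycogen (15) and NRF2 targets (20) were 0.06, 0.07 and 0.06. Those of xenobiotic metabolism (34), proteasome (31), ER stress (22) and cell cycle (12) were 0.00, 0.02, -0.03 and 0.02, and their signs changed with the scaling.

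Among genes with a mean of at least 50, those with the largest positive differences were few and modest in size. Lars2, the mitochondrial leucyl-tRNA synthetase, had 42.6 in the high library against 25.2 in the positive library. It ranged widely elsewhere, with 131 in bezafibrate negative, 28.7 in control positive and 38.2 in control negative. Pink1, a kinase of mitochondrial quality control, had 103 in the high against 76.6 in the positive library, a ratio of 1.35 (1.20 to 1.51), with 96.4 in bezafibrate negative. Mid1ip1, an activator of acetyl-CoA carboxylase, had 66.9 against 49.3, a ratio of 1.36 (1.17 to 1.57). Qprt, which makes a precursor of NAD from tryptophan, had 94.9 against 72.2, and Slc25a5, an ADP/ATP carrier of the mitochondrial inner membrane, 151 against 118. The sulfite oxidase Suox, the coat protein Copg1, Ninj1, Fgfr2 and Morf4l2 had ratios of 1.30 to 1.31.

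The largest negative differences among these genes included both metallothioneins in the table, small proteins that bind zinc and copper. Mt2 had 177 in the high library against 287 in the positive library, a ratio of 0.616 (0.574 to 0.662). It had 250 in bezafibrate negative, 248 in control positive and 281 in control negative. Mt1 had 249.8 in the high against 368 in the positive library, a ratio of 0.679 (0.639 to 0.722), with 311 in bezafibrate negative, 310.0 in control positive and 326 in control negative. The high library was the lowest of the 5 for each gene. The genes lie side by side on chromosome 8, and metal-responsive transcription factor MTF1 is known to act on their promoters through metal response elements. The RefSeq promoter windows (GRCm38.p6, plus strand), chr8:94178839-94179138 for Mt1 and chr8:94172368-94172667 for Mt2, are shown because both genes were lower in the high library. They run from 250 bases before to 50 after the start, with matches to the core of that element, TGCACNC or TGCGCNC on either strand, in capitals.
Mt1: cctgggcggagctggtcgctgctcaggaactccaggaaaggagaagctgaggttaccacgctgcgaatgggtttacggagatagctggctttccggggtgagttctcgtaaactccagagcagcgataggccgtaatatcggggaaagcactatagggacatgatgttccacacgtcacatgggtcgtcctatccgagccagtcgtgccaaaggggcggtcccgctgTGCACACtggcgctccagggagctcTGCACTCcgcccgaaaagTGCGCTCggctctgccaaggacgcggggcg
Mt2: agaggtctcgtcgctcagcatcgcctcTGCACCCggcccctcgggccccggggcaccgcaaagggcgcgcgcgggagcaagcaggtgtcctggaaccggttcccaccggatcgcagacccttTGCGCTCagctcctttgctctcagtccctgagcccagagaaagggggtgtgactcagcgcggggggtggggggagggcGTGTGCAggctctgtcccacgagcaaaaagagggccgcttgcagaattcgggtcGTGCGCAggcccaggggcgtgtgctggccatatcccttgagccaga
Mt1 has 3 matches and Mt2 has 4. Of 32851 promoter windows of this length, 25.7% hold at least 1 match, 1.97% at least 3 and 0.517% at least 4. A match is a description of letters and not a site.

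Other abundant genes were lower in the high library too. Sco2, a copper chaperone of cytochrome c oxidase, had 44.8 in the high library against 79.6 in the positive library, a ratio of 0.562 (0.488 to 0.647). It had 58.9 in bezafibrate negative, 104 in control positive and 103 in control negative. Sco2 overlaps Tymp on its own strand and Ncaph2 on the other, so some reads may belong to those genes. Srsf4, a splicing factor, had 58.6 against 80.7, Clk1, a kinase of such factors, 77.8 against 105, and Prpf38b 38.1 against 52.5. Irf9, a factor of the interferon response, had 211 in the high against 277 in the positive library, a ratio of 0.761 (0.711 to 0.815). For Srsf4, Clk1 and Irf9, bezafibrate negative had 55.3, 76.5 and 191. The nuclear RNA Malat1 had 17208 in the high and 19155 in the positive library, and Rn45s had 123019 and 174815, so these RNAs lay lower in the high library beside the genes named here. Their part in these differences was not tested.

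**Figure D4:**
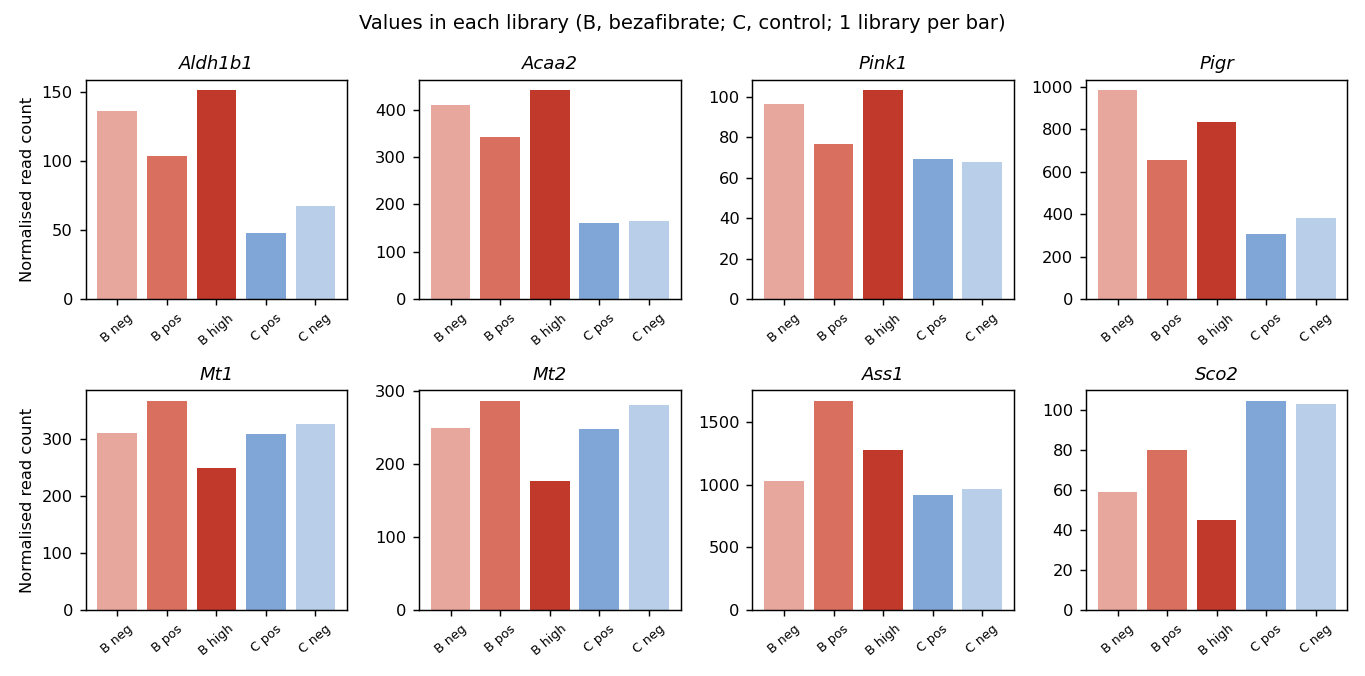
Normalised read counts of 8 named genes in each of the 5 libraries, 1 library per bar, in the order negative, positive and high gate of bezafibrate mice (B), then positive and negative gate of control mice (C). For Aldh1b1, Acaa2, Pink1 and Pigr the high bar stands above the positive bar, and for Mt1, Mt2, Ass1 and Sco2 below it.

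Major urinary protein genes, which encode male-biased pheromone carriers made in the liver, differed in opposite directions. Mup2 had 588 in the high library against 894 in the positive library, and Mup17 221 against 150. Copies of this family are nearly identical and the split of reads among them is uncertain. Summed over 17 such genes in the table, the value was 9387 in the high and 10048 in the positive library, a ratio of 0.934 (0.924 to 0.944).

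Markers of other liver cells were low in the 2 libraries. The 8 macrophage markers in the table summed to 11.9 in the high library against 6.46 in the positive library, and 10 endothelial markers to 43.7 against 31.5. Stellate cell markers summed to 48.4 against 33.6, of which Reln held 29.8 and 28.5. Cholangiocyte markers summed to 37.0 against 40.03. T and NK, B and neutrophil markers were at 2.99 or less in both, and erythroid and platelet markers summed to 44.2 against 38.0. The part of these cells in the differences was not tested.

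The high library was also set beside the negative library of bezafibrate mice, which shares the high library with the main comparison, while the step between negative and positive gate shares the positive library. Values are therefore given side by side only. For mitochondrial beta-oxidation the median difference was 0.14 for high minus positive, -0.12 for high minus negative and -0.30 for positive minus negative. For peroxisomal beta-oxidation the medians were 0.10, -0.15 and -0.25 in the same order, and for secreted proteins 0.13, -0.28 and -0.38. Summed over the 25 mitochondrial genes, the values were 4452 in bezafibrate negative, 3774 in positive and 4068 in high, against 3338 in control negative and 3381 in control positive. The sums of the 24 peroxisomal genes were 11002, 9517 and 10300 across the same bezafibrate gates. For these lists the high gate had the middle value of the 3 gates.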

How the data were processed

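RNA was measured by paired-end sequencing of ribosomal RNA-depleted libraries, 1 per gate and treatment. The table holds normalised signal per gene, as made by the authors. The submitters' processing notes name mm10, RSEM, edgeR, Bowtie2 and Trimmomatic 0.36 without saying what each did. The sources used here do not state whether counting used strand or how the factors were set. Each deposited value was a whole multiple of its column's smallest value above 0 (100% of values, tolerance 0.001 reads), so reads were recovered by division. Python 3.11.15, pandas 2.3.3, numpy 2.4.6 and scipy 1.17.1 were used.

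Genes with a mean of at least 5 over the 5 libraries entered, with a pseudocount of 1. Ratios have exact 95% intervals, and the 2 libraries alone allow no test. Coordinates and transcript lengths are from GENCODE M21 (GRCm38), which matched 13381 symbols (95.8%), and promoters from RefSeq. The scripts were tested on simulated data. The members and lists were chosen with earlier results of these data known.

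Named genes are the 12 largest differences each way, the 15 each way among genes with a mean of at least 50, and per list up to 2 each of highest mean, most positive and most negative difference with a mean of at least 20. Provisional names, pseudogenes and small RNAs were left out. Rn45s, Malat1, Neat1, Alb and the Amd and Srp54 copies were added. Chosen after their values were seen were Abcd2, Acadm, Acadvl, Angptl4, Apoa1, Etfb, Etfdh, Fgb, Hadha, Hadhb, Pex10, Retsat, Slc25a20, Ttr. Some members are not reported here. Alternatives were another pseudocount, filter and scaling. edgeR 4.0.16 (R 4.3.3) on the recovered reads of all 5 libraries was added after the data were seen.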

Additional observations from a re-analysis of the deposited data

How the results depend on the processing

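Counts of genes past a fold depended on the settings. With a pseudocount of 0.5, 13 genes were at least 2-fold higher in the high library, and with one of 5 there were 3, with 13 higher and 19 lower at 1.5-fold. With no filter the counts were 85 higher and 48 lower at 2-fold, and 547 higher and 417 lower at 1.5-fold. With a mean of at least 20 they were 2 and 2, and 8 and 12. Scaling by column totals gave 11 higher at 2-fold and 112 higher at 1.5-fold, moved the all-gene median by 0.05, and set the medians of mitochondrial, peroxisomal and omega-oxidation genes to 0.20, 0.16 and 0.10. Totals without Rn45s moved the all-gene median by -0.03 and set these medians to 0.11, 0.071 and 0.019. The cause was not tested. Counting intervals above and below 1 numbered 1161 and 385 with column totals, and 540 and 931 without Rn45s. Under a scaling, 14 of 31 list medians and 20 of 205 named genes changed sign. The medians of the 3 oxidation lists stayed positive under each setting run.

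edgeR's quasi-likelihood test on the recovered reads, with treatment plus gate over 5 libraries and 1 residual degree of freedom, counts as error any difference of the gates between treatments, so it is no replicate test. At an adjusted p of 0.05 it called 0 genes higher and 3 lower (Amd1, Gm14308 and Srp54c), with 160 at an unadjusted p under 0.05. No paired analysis was possible because each group has 1 library.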

Other observations

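Of the 14 genes at least 2-fold apart, 7 have provisional names and lie outside the rule for named genes, so they were chosen after their values were seen. Gm14434 had 33.2 in the high library against 0 in the positive library, with 67.2 in bezafibrate negative, 12.7 in control positive and 26.3 in control negative. Gm14391 had 10.7 in the high against 2.68 in the positive library, and Gm14308 0.266 against 9.77. These 3 lie on chromosome 2. 0610010B08Rik had 7.19 in the high against 42.4 in the positive library, with 80.3 in control negative. Gm20594 had 6.13 in the high against 20.96 in the positive library, and 189 in bezafibrate negative. Gm5801 had 10.53 against 3.63, and Gm20605, which overlaps Lrch4 and Sap25, 12.1 against 4.41.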
